A study of Mus musculus with 16 samples.

Results

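The long loops of the postnatal mouse cochlea are the pairs of 10 kb bins, the anchors, that the deposited loop list joins over 1 Mb or more on chromosomes 1 to 19. They were selected on the measured distance between the starts of both anchors, and 434 of the 6689 autosomal loops (6.49%) met this rule. The whole list holds 6798 loops, and 2 further loops of that length lie on chromosome X. The 6255 shorter autosomal loops, and among them the 857 loops of 600 to 990 kb, are set beside the long ones below.

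The loops come from Micro-C of whole cochleae of C57Bl/6 mice, and the ATAC-seq and CUT&RUN samples of the same study were not analysed here. The labels give the age as P0, the day of birth, and the study's methods give P0/1. The tissue mixes hair cells, supporting cells, neurons, mesenchyme and blood vessels, so that a loop cannot be assigned to a cell type. The authors merged 4 Micro-C replicates before they called loops, and no value below has a spread between replicates. Their text describes 3 replicates as biological and 1, replicate 4, as technical, while their supplement calls all 4 biological. Replicate 4 gave most of the read pairs.

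A chromatin loop brings distant positions of a chromosome into contact. Many loops form when the cohesin ring extrudes DNA until it meets the protein CTCF bound at sites that point towards each other, and others join promoters to enhancers. Developmental regulators often lie alone in large stretches poor in genes, called gene deserts, which carry enhancers that act on them from far away, and several such regulators direct the formation of the inner ear.

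The distance of the long loops ran from 1000 to 1960 kb, with a median of 1230 kb and quartiles of 1080 and 1477.5 kb. Just inside the threshold lay 14 loops of 1000 kb, with a median false discovery rate (FDR) of 0.0366, and just outside it lay 12 loops of 990 kb, with a median FDR of 0.0356. The FDR is the loop caller's estimate of how often a call of that strength is false. These values describe what chose the loops and carry no further comparison.

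Long loops were called with weaker support than shorter ones. Their median FDR was 0.0181 against 0.0107 among shorter loops, and it was the higher of both on 16 of 19 chromosomes. An FDR below 0.01 was given to 163 long loops, or 37.6% (95% Wilson interval 33.1% to 42.2%), against 48.8% (47.6% to 50.1%) of shorter ones. All such intervals cover counting error over loops, which are not independent of each other, and not the variation between animals. The caller found 67.3% of the long loops (62.7% to 71.5%) at its smallest detection scale, the width of the spot it looks for, against 71.9% (70.8% to 73.0%) of the shorter loops.

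Chromosomes differed in their number of long loops. Chromosome 13 had 41 of them, or 3.40 per 10 Mb, which was 11.0% of its loops. Chromosome 16 followed by share, with 25 long loops among its loops (10.4%). Chromosome 7 had 15, or 1.03 per 10 Mb and 4.27% of its loops. Chromosome 13 carries 6.96 protein-coding genes per Mb and chromosome 7 carries 13.9. Other chromosomes did not follow this order, since chromosome 19 had 2.60 long loops per 10 Mb at 11.7 genes per Mb and chromosome 3 had 1.56 at 6.27 genes per Mb.

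The stretches between the anchors of long loops were poor in genes. Summed over loops, 1.43 protein-coding genes per Mb lay whole between the anchors, against 4.25 in shorter loops, 2.63 in loops of 600 to 990 kb and 8.45 per Mb over chromosomes 1 to 19. The value was lower than that of the shorter loops of the same chromosome, and lower than that of the chromosome as a whole, on 19 of 19 chromosomes. Classes of longer loops had lower density, with a single exception. The values were 7.01 genes per Mb under 200 kb, 5.22 from 200 up to 390 kb, 3.66 from 400 up to 590 kb, 2.98 from 600 up to 790 kb and 2.19 from 800 up to 990 kb. Within the long loops they were 1.54 from 1000 up to 1190 kb, 1.75 from 1200 up to 1490 kb and 0.938 from 1500 kb. The middle class of these contains the 2 loops that span most genes. With genes of any biotype counted, the density in long loops was 9.94 per Mb.

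Base composition went the same way. The median GC content between the anchors was 40.0% in long loops and 43.5% in shorter ones, with 41.9% over the autosomes, and it was lower in long loops on 19 of 19 chromosomes. Repeats made up a median of 31.0% of the bases inside long loops, 27.6% inside shorter loops and 33.5% of the autosomes. The stretches were thus poorer in GC, while their median repeat content lay below that of the genome. In loops from 1500 kb, however, the median repeat content was 34.2%, above that of the autosomes. What part base composition has in the difference in gene density was not tested.

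Counted as stretches of the genome, long loops covered 364.3 Mb between their anchors, or 14.8% of the autosomes, and shorter loops covered 44.2%. Start sites of 716 protein-coding genes lay in the stretches of the long loops, 1.97 per Mb against 8.45 per Mb overall. Long intergenic noncoding RNA genes did not share this scarcity. Start sites of 844 of them lay there, 2.32 per Mb against 2.12 per Mb of the autosomes. Antisense RNA genes, which accompany protein-coding genes, were scarce at 0.494 against 1.18 per Mb. With genes of all kinds counted, 1 of the 434 loops spanned none.

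Between its anchors, the typical long loop held a single protein-coding gene or none. No whole protein-coding gene was spanned by 114 long loops, or 26.3% (22.3% to 30.6%), and exactly 1 was spanned by 151. More than 5 genes were spanned by 19 loops and 10 or more by 7 loops. Spanning none was more frequent among shorter loops, at 44.2% (42.9% to 45.4%), which enclose less sequence, and was as frequent among loops of 600 to 990 kb, at 27.8% (24.9% to 30.9%).

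The 151 loops around a single gene enclosed 116 different genes. A gene was the lone member of 4 loops in 3 cases, which were Isl1, a LIM homeodomain regulator of sensory neurons and of the prosensory domain of the ear, Tshz3, a zinc finger homeodomain factor of smooth muscle and neurons, and Klf6, a zinc finger factor of the Krüppel-like family. Ebf1, a regulator of B cells and of sensory and skeletal tissue, was alone in 3 loops. Among the genes alone in 2 loops were Etv1, Klf4, Osr1, Sox5, Lmo4, Irx1 and Pou3f3, which encode regulators of transcription, and Adamts5, Col12a1 and Cntn3, which encode a matrix protease, a collagen and a neural adhesion protein. These names beyond the naming rule were chosen after their values were seen.

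Genes of the lists of homeodomain, Hox, Sox, forkhead, T-box and nuclear receptor regulators, joined into 1 group after the values were seen, made up 14 of the 116 lone genes, or 12.1% (7.33% to 19.2%). They made up 30 of the 637 genes spanned whole by any long loop, or 4.71% (3.32% to 6.64%), and 274 of all 20807 autosomal protein-coding genes, or 1.32% (1.17% to 1.48%). Among the 61 genes with a start site in an anchor of a long loop, 9 belonged to the group. No test of these shares was made.

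Gene clusters were the exception to the low density. The 4 loops that span most genes held 123 of the 799 spanned genes counted over loops, and the density without them was 1.22 per Mb. The highest count was 42 genes between 73130001 and 74380000 on chromosome 11 (all coordinates are of GRCm38), in a loop of 1240 kb. Its first anchor held the start site of Haspin, a histone kinase, and it enclosed the ion channel genes Trpv1 and Trpv3 and a run of olfactory receptor genes. The next was a loop of 1390 kb on chromosome 16, from 88370001, which enclosed 40 genes, most of them for keratin-associated proteins of hair. Another, of 1010 kb on chromosome 1 from 173450001, enclosed 27 genes, among them the interferon-inducible Ifi family and olfactory receptors. A loop of 1330 kb on chromosome 2, from the start site of Ankrd60, enclosed 14 genes, including the imprinted Gnas and Edn3, a ligand that pigment and enteric nerve precursors require.

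The same number, 14, lay in the long loop with the lowest FDR of all (4.55e-08, chromosome 19, 38980001 to 40220000, 1230 kb). The 14 genes are all of the Cyp2c family of drug-metabolising enzymes, and no gene body overlaps either anchor, the nearest start sites being those of Cyp2c55 (17.0 kb) and Cyp2c70 (22.7 kb). The FDR of the next long loop was 8.27e-05. Repeats made up 59.9% of the bases inside the Cyp2c loop, which is the highest share of all long loops, and how near-identical gene copies bear on the call was not tested.

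The other long loops with the lowest FDR enclosed few genes. The loop of 1060 kb around Pappa, a protease that cleaves insulin-like growth factor binding proteins, ended in the body of Astn2 on chromosome 4. A loop of 1030 kb on chromosome 13 (FDR 8.4e-05) enclosed Plk2, a polo-like kinase, and Actbl2. A loop of 1000 kb enclosed Trib2, a pseudokinase, as its lone gene on chromosome 12 (FDR 0.000118). Tshz3 was alone in a loop of 1450 kb on chromosome 7 (FDR 0.000334). The 10 also include loops at the start sites of Nr2f2 and Bcl6, one into the body of Prdm8 and, at an equal FDR of 0.000341, a loop of 1290 kb from the body of Bcl6 and a loop of 1020 kb into the body of Fgf12 that enclosed no gene.

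The longest loops reached 1960 kb, and several of them enclosed a single gene. On chromosome 14, a loop from 34810001 to 36780000 had its first anchor end 108 bases before the start site of Grid1, which encodes a delta glutamate receptor, and enclosed it with 2 other genes. On chromosome 18, a loop of the same length joined the start site of Kctd16, an auxiliary subunit of GABA-B receptors, to the body of Lars and enclosed Grxcr2, which hair cell stereocilia need, with 3 other genes. A loop of 1940 kb on chromosome 1 joined the body of Cps1 to a bin 21.9 kb past the start of Erbb4, a neuregulin receptor, and enclosed Erbb4 alone. At 1910 kb, one loop enclosed Sox11, a regulator of neuronal and epithelial progenitors, as its lone gene, and another enclosed Tmtc2 with 7 predicted genes. At 1900 kb, lone genes were BC030500 on chromosome 8 and Slit2, a repellent of axons, on chromosome 5.

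Of the 5 longest loops without an enclosed gene, 4 had an anchor on the body of a protein-coding gene. A loop of 1890 kb on chromosome 4 ended on the start site of Epha7, an ephrin receptor, and its other anchor lay 573.1 kb from the nearest start site, that of Manea. On chromosome 13, a loop of 1850 kb ended within Mef2c, a regulator of neurons, muscle and neural crest, with a consensus match for CTCF there that had no mismatch. On chromosome 1, a loop of 1830 kb ended on the body of Pou3f3, a POU regulator of the brain. Lsamp, an adhesion gene, held the end of a loop of 1870 kb on chromosome 16. The remaining one, of 1890 kb on chromosome 16, ended 78.9 kb from Tmprss15 and 130.7 kb from Ncam2.

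Start sites were rarer in the anchors of long loops than in those of all shorter ones, and about as frequent as in loops of 600 to 990 kb. An anchor of 67 long loops held such a start site, or 15.4% (12.3% to 19.1%), against 22.4% (21.4% to 23.4%) of shorter loops and 14.4% (12.2% to 16.9%) at 600 to 990 kb. The share was lower than among shorter loops on 16 of 19 chromosomes. It depended on what was counted, and was 26.5% with the starts of all transcripts, 37.3% within 10 kb of an anchor and 32.3% with genes of any biotype. Both anchors held one in 0 of 434 long loops (Wilson interval up to 0.877%), in 3 loops of 600 to 990 kb (0.350%, 0.119% to 1.02%) and in 100 shorter loops (1.60%, 1.32% to 1.94%). With 1 start site per gene, no long loop thus joined start sites of protein-coding genes, and other transcripts were not counted for both anchors.

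The anchors of long loops held the start sites of 61 genes. These were 0.293% of the 20807 autosomal protein-coding genes, against 7.13% of genes in an anchor of a shorter loop. A further 689 genes (3.31%) had their start site between the anchors of a long loop, and 428 (2.06%) had it outside, within 100 kb of an anchor. These shares are the background for the gene lists below.

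As among long loops in general, most loops at a start site reached into a stretch with few genes. Of the 67 loops, 30 spanned no gene and 18 spanned 1. Among all 434 long loops, 114 spanned none and 151 spanned 1. The body of the gene ran into the loop in 39 of 73 pairs of gene and loop and away from it in 34, so that the direction of transcription was mixed. The lowest FDR was that of Nr2f2, a nuclear receptor of vessels, mesenchyme and neurons (ENSMUSG00000030551.14, chromosome 7, minus strand, start site at 70366735). Its loop reached over 1030 kb (FDR 0.000115) to a bin 38.5 kb from the small gene Gm10295, and its body ran away from the loop.

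Bcl6, a repressor of transcription (start site at 23988852 on chromosome 16), had 2 loops of 1080 and 1360 kb that both enclosed Lpp, a gene of 599.1 kb for a protein of cell contacts. The start site of Igfbp3, an insulin-like growth factor binding protein, had 3 loops of 1030, 1090 and 1190 kb on chromosome 11, none of which enclosed a gene. The same was true of the 3 loops of Tfap2b, an AP-2 factor of neural crest (1100, 1240 and 1310 kb, all into the body of Pkhd1), and of the 2 loops of Inhba, a subunit of activin (1010 and 1420 kb, both into the body of Sugct). Myc, a regulator of growth, had 2 loops of 1670 and 1760 kb on chromosome 15 that enclosed no protein-coding gene. Gja1, which encodes connexin 43, Id2, an inhibitor of basic helix-loop-helix factors, Bcl11a and Zfp462 each had their start site in the anchor of 1 loop, and none of these enclosed a gene. Several start sites thus had a loop of 1 Mb or more without a whole protein-coding gene in it.

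Gene bodies, too, were rarer at the anchors of long loops. No gene body overlapped either anchor of 156 long loops, or 35.9% (31.6% to 40.6%), against 17.1% (16.2% to 18.1%) of shorter loops and 26.1% (23.3% to 29.2%) at 600 to 990 kb, and the share was higher than among shorter loops on 19 of 19 chromosomes. Gene bodies lay at both anchors of 83 long loops (19.1%, 15.7% to 23.1%) and of 38.1% of shorter loops. The 300 genes that did overlap an anchor were long ones. Their median length was 115.3 kb, against 56.9 kb for the 4998 genes at anchors of shorter loops and 17.6 kb for all genes, and 51 of them (17.0%) exceeded 500 kb, against 3.02%. A longer gene covers more bins, and its length was not adjusted for.

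Both anchors lay in the same gene in 5 long loops (1.15%, 0.493% to 2.67%), against 9.61% of shorter loops. Only a gene of about 1 Mb or more can reach both anchors of a long loop, and the shares were not adjusted for this. All 5 genes exceed 1 Mb in length. They are Macrod2, an ADP-ribosyl hydrolase (1997.7 kb), Magi2, a synaptic scaffold (1477.8 kb), Tenm2, a teneurin adhesion protein (1229.3 kb), Prkg1, a cGMP-dependent kinase (1200.5 kb), and Gpc6, a glypican (1051.2 kb). The Magi2 loop had the lowest FDR of them, at 0.00741 and 1180 kb. The Macrod2 loop of 1580 kb also held the start site of Flrt3, which lies within Macrod2.

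The anchors lay farther from start sites than those of shorter loops, and the nearest start site was mostly outside the loop. The median distance from an anchor bin of a long loop to the nearest start site was 68.6 kb, against 26.8 kb for shorter loops and 52.7 kb at 600 to 990 kb. It exceeded 100 kb for 40.9% of the bins (37.5% to 44.4%), against 20.5% (19.8% to 21.3%). Counted per loop end, the nearest start site lay outside the loop for 579 of 868 ends, or 66.7% (63.5% to 69.8%), and between the anchors for 222 (25.6%, 22.8% to 28.6%). For shorter loops, the nearest start site lay outside at 52.0% of the ends (51.1% to 52.8%), and for loops of 600 to 990 kb at 61.1% (58.8% to 63.4%).

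Sox, guidance and homeodomain genes had the highest shares inside long loops of all lists but the keratin-associated genes. Of 119 homeodomain genes other than Hox genes, 6 had their start site in an anchor of a long loop (5.04%, background 0.293%) and 15 had it between the anchors (12.6%, background 3.31%). Those in an anchor included Zeb2, Meis1, Irx2 and Tshz1. Irx2 had its loop of 1170 kb to a bin 503.7 kb beyond Irx1, its cluster neighbour in patterning, and enclosed Irx1 alone. Zeb2, a regulator of neural crest, had a loop of 1330 kb without an enclosed gene, whose far anchor was 1322.6 kb from the nearest start site, which was that of Zeb2 itself. Between the anchors lay, among others, Shox2, Lhx9, Meis2, Pou3f2 and Pou4f1, a POU regulator of sensory neurons.

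None of the 39 Hox genes lay in (background 0.293%), between (3.31%) or within 100 kb outside (2.06%) the anchors of long loops, while 14 (35.9%, background 7.13%) lay in an anchor of a shorter loop. Other homeodomain (22.7%), forkhead (22.0%), T-box (18.8%) and Sox genes (16.7%) were also above that background in anchors of shorter loops. Nuclear receptor genes (4.88%) were below it. A high share in anchors was thus not particular to long loops. Hox genes sit in 4 dense clusters, so that the 39 are not independent of each other, and the background share inside equals about 1 gene of 39. Ribosomal protein genes had 0 of 79 in an anchor or inside and 3 next to a long loop (3.80%, background 2.06%). Proteasome subunit genes had 0 of 49 in an anchor or inside and 2 next to a loop (4.08%). At the background share, lists of this size would have under 1 gene in the anchors. Of 35 complex I subunit genes, 1 lay inside (Ndufs4, 2.86%), which is near the background of 3.31%. Of 78 mitochondrial ribosomal protein genes, 1 lay inside (Mrps35, 1.28%) and 3 lay next to a loop (3.85%). The housekeeping lists thus lay near the background or below it inside long loops. Next to them, the shares rest on at most 3 genes of a list, too few to set apart from the background.

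Other families of transcription factors were also present. Of 18 Sox genes, Sox11 had its start site in an anchor (5.56%, background 0.293%), and Sox2, Sox5 and Sox6 lay between anchors (16.7%, background 3.31%). Sox2, which marks and is needed by the prosensory cells of the cochlea, was alone in a loop of 1260 kb on chromosome 3 (FDR 0.011). Of 41 nuclear receptor genes, Nr2f2 and Nr2f1 had their start site in an anchor (4.88%), and Nr4a2, Nr3c1, the glucocorticoid receptor, and Rorb lay inside (7.32%). Of 41 forkhead genes 4 lay inside (9.76%), which were Foxp1, Foxn3, Foxq1 and Foxf2. Among 16 T-box genes 1 did, Tbx15 (6.25%), so that the T-box share rests on 1 gene. Foxq1 and Foxf2 shared a loop of 1070 kb on chromosome 13.

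Guidance genes of the nervous system were above the background in the anchors and inside. Of 71 semaphorin, plexin, ephrin, slit and netrin genes with their receptors, 4 had their start site in an anchor (5.63%, background 0.293%) and 10 lay inside (14.1%, background 3.31%). They were also above the background in anchors of shorter loops, with 15 genes (21.1%, background 7.13%). Robo2, a receptor for slits, was joined over 1410 kb to the body of its paralogue Robo1 (FDR 0.00434), with no gene enclosed. The start site of Nrp2, a semaphorin receptor, had a loop of 1330 kb across Pard3b (FDR 0.00447), and that of Epha4 had one of 1590 kb without an enclosed gene. Sema3a, a repellent of spiral ganglion axons, was alone in a loop of 1060 kb on chromosome 5 (FDR 0.000909).

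Of 104 cadherin and protocadherin genes, Fat4, Pcdh7 and Pcdh20 had start sites in anchors (2.88%, background 0.293%) and 2 lay inside (1.92%, background 3.31%). Fat4, a giant cadherin of planar polarity, had its start site in the anchor of a loop of 1500 kb on chromosome 3 that spanned no whole protein-coding gene, and its body ran into the loop. Among 71 synaptic adhesion genes, Flrt3 and Kirrel3 were in an anchor (2.82%), 3 lay inside (4.23%) and 5 lay next to a loop (7.04%, background 2.06%). Glutamate and GABA receptor genes had 3 of 42 inside (Gria1, Grid1 and Grin2a), potassium channel genes had 6 of 91 (6.59%) and collagen genes had 4 of 42 (9.52%). Of the 59 Fgf, Wnt and Bmp ligand genes, Bmp2, Fgf5 and Fgf9 lay inside (5.08%). In anchors of shorter loops, the shares of these lists ran from 13.2% (potassium channels) to 21.4% (collagens), against a background of 7.13%.

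In 2 lists, the count rested on large clusters. Other lists also count neighbours within the same loop, such as Col3a1 with Col5a2, Kcnj16 with Kcnj2 and Dlx5 with Dlx6. Keratin and keratin-associated genes had 24 of 110 inside (21.8%), and all of these are the keratin-associated genes of the loop on chromosome 16. Olfactory and vomeronasal receptor genes had 43 of 1470 inside (2.93%), close to the background, and they lay in the cluster loops of chromosomes 1 and 11.

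The share of genes of hearing loss and inner ear development inside long loops was above the background, and this difference was not tested. Of 113 genes, 1 had its start site in an anchor (Nr2f1, 0.885%, background 0.293%), 9 lay inside (7.96%, background 3.31%) and 3 lay next to a loop (2.65%, background 2.06%). Those inside were Eya1, Gata3, Edn3, Sema3e, Dlx5, Ptprq, Ednrb, Grxcr2 and Tectb. Eya1, a phosphatase and coactivator without which the ear does not form, was alone in a loop of 1010 kb on chromosome 1 (FDR 0.0278). Ednrb, the receptor for Edn3, shared its loop of 1090 kb on chromosome 14 with Pou4f1. Tectb, which encodes a protein of the tectorial membrane, lay in a loop of 1150 kb from the start site of Adra2a on chromosome 19 (FDR 0.0891), whose far anchor overlapped it. Ptprq, a phosphatase of hair bundles, lay in a loop of 1130 kb on chromosome 10 (FDR 0.0666).

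Long loops shared anchors in fans that opened to 1 side. They used 782 bins, of which 707 served 1 long loop, 66 served 2, 7 served 3 and 2 served 4. The 75 shared bins belonged to 154 loops, and at all 75 the long loops ran in the same direction. The partners of a shared bin lay apart by a median of 170 kb, and by more than 100 kb at 58 of the 75, so that at these 58 they were not calls in neighbouring bins. With calls within 100 kb merged, 48 shared bins were left. A start site lay in 9 of the 75 shared bins and a match to the CTCF consensus in 44. Among all 782 bins, shared ones included, 56 contained a start site (7.16%, 5.56% to 9.19%). A consensus match was found in 361 of the 782 (46.2%, 42.7% to 49.7%). Whether shared bins differ from the other bins was not tested. Among loops with an FDR below 0.01, 13 bins were shared.

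The bins with 4 long loops flanked Gata3 and Isl1, both regulators of the inner ear. The bin from 8670001 to 8680000 on chromosome 2 lies 1160.4 kb from the nearest start site, that of Celf2. Its loops of 1200, 1330, 1410 and 1620 kb ended in the body of Gata3 (ENSMUSG00000015619.10, 9857078 to 9890034), in Taf3, at the paired start sites of Atp5c1 and Kin, and past Itih5. That of 1330 kb had the lowest FDR, at 0.00169. The bin from 116710001 to 116720000 on chromosome 13 had loops of 1040, 1270, 1430 and 1480 kb that ran the other way. All 4 enclosed Isl1 (ENSMUSG00000042258.13, 116298281 to 116309689) and no other gene, and their far anchors lay between 128.0 and 568.0 kb from the start of Itga1, with no gene body on any of them. Gata3 was thus reached or passed by loops of rising length, and Isl1 lay well within all of its own.

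Several of the 7 bins with 3 long loops had a regulator of transcription at an end of their loops or between the ends. On chromosome 12, the bin from 9050001 had loops of 1170, 1380 and 1510 kb that enclosed Osr1, a zinc finger regulator of kidney and mesenchyme. On chromosome 13, the bin from 40740001, which lies 1.63 kb from the start site of Tfap2a, an AP-2 factor of neural crest, had loops of 1100, 1310 and 1550 kb that enclosed Tfap2a and Ofcc1. On chromosome 5, the bin from 97120001 had loops of 1060, 1140 and 1200 kb that ended in turn in Prdm8, a regulator with zinc fingers, in the hair growth factor gene Fgf5 and at the start site of Cfap299. On chromosome 4, loops of 1000, 1080 and 1180 kb ended within Plpp3, a lipid phosphatase, next to it and in Prkaa2. Another 2 bins held the start sites of Igfbp3 and Tfap2b.

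Loops that overlapped between their anchors formed 273 groups, of which 105 held 2 or more loops and 266 loops in all. Groups of 5 lay around Klf6, Tshz3, Gata3 and Osr1, among others. Genes spanned by 2 or more long loops lie in such groups by definition. Among them, Osr1 and Tshz3 were spanned by 5 loops each. At 4 loops, Btg1, Isl1, Klf6, Lpp, Ofcc1 and Tfap2a were tied, and 518 of the 637 spanned genes were spanned by 1 loop.

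Long loops shared fewer anchors with short loops than loops of middle length did. Of the 782 bins, 168 (21.5%, 18.7% to 24.5%) also anchored a loop under 1 Mb and 97 (12.4%, 10.3% to 14.9%) a loop under 600 kb. Among loops with an FDR below 0.01, the share that served a loop under 1 Mb was 10.3%. The share for loops under 600 kb was 21.2% (19.2% to 23.2%) among the 1592 bins of loops of 600 to 990 kb. Shorter loops nonetheless lay within most long loops. The median number enclosed was 2, the highest was 11, in a loop of 1360 kb on chromosome 1 around Klf7 and Creb1, and 101 long loops (23.3%) enclosed none. A shorter loop started inward from both anchors of 30 long loops and from 1 anchor of 116. In 7 cases a pair of such loops met in the same bin and so divided the long loop without a gap. With a tolerance of 1 bin the count was 38, which is not a part of the 30 loops that share both anchor bins exactly.

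CTCF consensus matches were about as frequent in the anchors of long loops as in those of shorter ones, but pairs of them pointed towards each other more often. The search used a 14-base CTCF consensus on both strands with at most 1 mismatch. A match is a description of the letters and does not show that the protein was bound. It was found in 46.2% of the bins of long loops (42.7% to 49.7%), in 48.8% of those of shorter loops (47.9% to 49.7%) and in 21.6% of 239487 bins of chromosomes 1 to 19. In 89 long loops both anchors had a best match on a single strand, and 77 of these pairs were convergent (86.5%, 77.9% to 92.1%), with the match of the lower anchor on the plus strand and that of the upper on the minus strand. Among shorter loops the share was 67.4% (64.9% to 69.8%, 1394 pairs), at 600 to 990 kb it was 70.5% (63.3% to 76.8%), and from 800 kb up to 990 kb it was 80.9% (70.0% to 88.5%). Of the other 12 long pairs, 1 pointed apart and 11 pointed in the same direction.

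Among the 10 longest loops and the 10 with the lowest FDR, ties included, 6 had such a pair. They were convergent in 5 and both on the plus strand in the loop into Prdm8. The following matches are shown as 3 of the convergent pairs, with 2 shared anchors. Capitals mark the 14 bases aligned to the consensus, with 8 flanking bases on each side, read on the strand of the match from GRCm38. The pairs have no mismatch except at the upper anchor of the Plk2 loop.
Slit2 loop, lower anchor, chr5:46443973-46444002, plus strand: ccaaattaCCACTAGATGGCAGggttccca
Slit2 loop, upper anchor, chr5:48345861-48345890, minus strand: tctaatggCCACTAGATGGCACtaaataac
Bcl6 loop, lower anchor, chr16:23984355-23984384, plus strand: gtgacctaCCACTAGGTGGCGGactcagtc
Bcl6 loop, upper anchor, chr16:25064740-25064769, minus strand: gatgtcatCCAGCAGAGGGCGCtcttggag
Plk2 loop, lower anchor, chr13:110382719-110382748, plus strand: aacattgaCCAGCAGAGGGCAGtcgaagtc
Plk2 loop, upper anchor, chr13:111411080-111411109, minus strand: aaaatcgaACACTAGAGGGCGGcaaaacac
Isl1 shared anchor, chr13:116715005-116715034, minus strand: tagggtggACAGCAGGTGGCAGcaaaggcc
Igfbp3 shared anchor, chr11:7210514-7210543, plus strand: gcctgctaCCAGCAGGGGGCAGtcacgccc
The shared anchor at Igfbp3, whose long loops run to higher coordinates, carries the match on the plus strand, and that above Isl1, whose long loops run to lower coordinates, carries it on the minus strand. Of the 9 bins with 3 or 4 long loops, 8 had a match with at most 1 mismatch, and 7 of these pointed along their loops. That of the bin with loops towards Plpp3 pointed away from them.

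Promoters of genes with a start site in an anchor of a long loop were richer in CpG dinucleotides than those of the genes between the anchors. RefSeq promoters of GRCm38.p6, from 250 bases before to 50 bases after the start, matched 42 of the 61 genes by name. Those of Pth2r, Tfap2b and Bcl11a start outside the anchor bin, because RefSeq and GENCODE place the start of these genes differently. Their median number of CpGs was 18.5, against 15 over 15687 autosomal genes, 20 for 1088 genes in anchors of shorter loops and 10 for 521 genes between the anchors of long loops. At least 10 CpGs were present in 73.8% of the 42 (58.9% to 84.7%). Among the enclosed genes, of which olfactory receptor and keratin-associated genes form a part, the share was 51.2% (47.0% to 55.5%). Over the 15687 autosomal genes it was 60.2% (59.4% to 60.9%), which lies within the interval of the 42. For genes in anchors of shorter loops it was 74.2% (71.5% to 76.7%), so a high share was not particular to long loops. The promoters of Bcl6 and Igfbp3 are shown as CpG-rich examples and that of Inhba as one with fewer than 10, with CpGs in capitals.
Bcl6 promoter, chr16:23988803-23989102, minus strand: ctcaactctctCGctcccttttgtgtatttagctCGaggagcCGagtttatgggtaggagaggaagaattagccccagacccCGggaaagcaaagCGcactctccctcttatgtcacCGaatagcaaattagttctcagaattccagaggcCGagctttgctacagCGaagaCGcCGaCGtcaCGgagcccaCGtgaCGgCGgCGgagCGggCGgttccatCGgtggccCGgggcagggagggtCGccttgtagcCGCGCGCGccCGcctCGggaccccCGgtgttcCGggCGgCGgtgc
Igfbp3 promoter, chr11:7213874-7214173, minus strand: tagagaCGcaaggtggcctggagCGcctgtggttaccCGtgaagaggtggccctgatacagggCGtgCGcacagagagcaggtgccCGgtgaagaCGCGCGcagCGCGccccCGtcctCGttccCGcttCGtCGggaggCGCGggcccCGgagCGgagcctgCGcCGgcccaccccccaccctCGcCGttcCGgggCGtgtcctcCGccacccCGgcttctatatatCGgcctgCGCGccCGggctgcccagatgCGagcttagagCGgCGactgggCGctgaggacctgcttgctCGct
Inhba promoter, chr13:16011601-16011900, plus strand: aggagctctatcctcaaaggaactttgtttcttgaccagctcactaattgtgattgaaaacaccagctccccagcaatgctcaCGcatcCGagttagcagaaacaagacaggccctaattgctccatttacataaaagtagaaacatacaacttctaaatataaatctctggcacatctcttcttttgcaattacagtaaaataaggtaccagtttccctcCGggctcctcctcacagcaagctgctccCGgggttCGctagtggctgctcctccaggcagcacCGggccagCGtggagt
These promoters hold 31, 37 and 7 CpGs, and each belongs to a gene whose start site had 2 or 3 long loops.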

How the data were processed

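Micro-C was performed on whole cochlea in 4 replicates. The authors' text describes 3 as biological and 1 as technical, and their supplement calls all 4 biological. The authors aligned reads to mm10 with BWA-MEM, removed duplicates with pairtools, made matrices with Juicer tools, pooled all replicates, and ran Mustache at 10 kb to call the loops. The versions of these tools are not given in the sources used here. The deposited list gives anchor coordinates, the FDR, a q-value below 0.1 for every loop, and a score, the detection scale of the call. The deposited list carries no read counts, so the depth behind each loop is unknown here.

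Genes came from GENCODE M21 and sequence from GRCm38.p6. Calculations used numpy 2.4.6, scipy 1.17.1 and pandas 2.3.3 under Python 3.11.15. The start site is where the annotated protein-coding gene begins on its strand, and a gene was placed in an anchor, else inside a loop, else next to it within 100 kb. The functions recovered planted sites and gene counts in simulated data. The CTCF consensus is from general knowledge, not from these data, and a pair was dropped when either bin had its best match on both strands alike.

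Loops were named by rule: the 10 longest, the 10 with the lowest FDR, the 5 that span most genes, the 5 longest that span none, the anchors used by most loops, the 5 genes spanned by most loops (with ties), and list members with a start site in an anchor. The 20 gene lists were defined by symbol. Members and lists were chosen with earlier results of these data known, and no test was made over loops. Alternatives were stricter FDR, the smallest detection scale, a 1200 kb threshold, outer bin ends, merged calls, and other definitions of start sites, density and matches. The names of lone genes, the joined group of regulator lists and 3 of the alternatives were chosen after values were seen. Chromosome X, ATAC-seq and CUT&RUN samples were left out. Some members that the naming rule selects are not reported here.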

Additional observations from a re-analysis of the deposited data

How the results depend on the processing

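Of 68 recomputed values, 47 stayed within the interval of the reported share or within 1.5 times the reported count or density. The gene density between anchors remained below that of shorter loops in every setting for which both were computed, with a ratio of 0.336 as reported, 0.287 to 0.409 under most settings and 0.541 against loops of 600 to 990 kb only. The density itself was 9.94 per Mb with genes of any biotype, for which shorter loops were not computed. At FDR below 0.05, 2.81% of genes lay inside long loops and 17.0% of anchor bins also served a shorter loop. At FDR below 0.01, 163 long loops were left, 22.1% of them spanned no gene, 1.61% of genes lay inside, 13 bins were shared and 10.3% of bins also served a shorter loop. At the smallest detection scale, 2.57% of genes lay inside, 40 bins were shared and 17.9% also served a shorter loop. From 1200 kb, 238 loops were left, with 2.04% of genes inside and 37 shared bins. With calls within 100 kb merged, 48 bins were shared. Each of these settings leaves fewer loops by construction.

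The share of long loops with a start site in an anchor was 26.5% with the start of any transcript of a protein-coding gene, 37.3% within 10 kb of the anchor and 32.3% with genes of any biotype. The convergent share was 92.9% of 14 pairs without a mismatch (68.5% to 98.7%), against 81.9% of 155 pairs of shorter loops (75.1% to 87.2%) and 88.2% of 17 pairs at 600 to 990 kb (65.7% to 96.7%), so that these intervals overlap. It was 65.7% of 204 pairs with up to 2 mismatches (58.9% to 71.9%), against 56.9% of 2777 pairs of shorter loops (55.1% to 58.8%). At 600 to 990 kb it was 57.9% of 394 pairs (52.9% to 62.6%), an interval that overlaps that of long loops. The cause was not tested. In 3 alternatives chosen after seeing the data, the convergent share was 86.0% among loops that share no anchor, and without the 4 loops richest in genes the density was 1.22 per Mb and its ratio 0.287.

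No paired analysis was possible because the replicates were pooled before loops were called, so the list has a single value for each loop. Leaving out replicates was not possible either. The list shows what passed the caller at this depth, and a pair of bins that is not in it was not shown to lack a loop.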

Other observations

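On chromosome X, 2 loops of 1 Mb or more were listed. One, of 1220 kb from 68940001 (FDR 0.0255), enclosed Aff2, a gene of the family of transcription elongation factors, and 1700020N15Rik. The other, of 1110 kb from 162940001 in the body of Ctps2 (FDR 0.044), enclosed 6 genes, among them Grpr, the receptor for gastrin-releasing peptide.

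Noncoding genes differed among themselves in the stretches between the anchors of autosomal long loops. Start sites of microRNA genes lay there at 0.436 per Mb, against 0.834 per Mb of the autosomes, and processed pseudogenes at 2.70 against 3.62 per Mb. With genes of any biotype counted, a start site lay in an anchor of 140 of the 434 long loops.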
